A study of Mus musculus with 3 samples.

Results

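The genes described here encode the D cyclins (Ccnd1, Ccnd2 and Ccnd3), the kinases they activate (Cdk4 and Cdk6), 3 inhibitors of cyclin-dependent kinases, or CDKs (Cdkn1a, Cdkn1b and Cdkn2b), and 2 proteins of the retinoblastoma family (Rb1 and Rbl2). They were listed by name, with no threshold on their values, and all 10 were found among the 49120 gene symbols of the files. They were read in 3 RNA sequencing libraries of back-skin epidermis from wild-type C57BL/6 mice, 7 weeks old, at the second telogen, the resting phase of the hair cycle. The epidermis was freed with thermolysin (0.25 mg/ml, 1 hour), and antibodies against CD34 and integrin alpha 6 (Itga6) sorted its cells into CD34-negative cells (N), CD34-positive cells with high Itga6 (B, basal bulge stem cells) and CD34-positive cells with low Itga6 (S, suprabasal bulge stem cells). The bulge is the hair follicle segment where its stem cells reside. Each library held the RNA of 4 mice pooled, so there was 1 library per group, no spread between animals could be seen and no test was possible. All 3 groups share the strain, genotype, age and hair cycle phase, and N is a mixture of every epidermal cell without surface CD34.

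As background, D cyclins rise when growth signals reach a cell, bind CDK4 or CDK6 and start the phosphorylation of the retinoblastoma, or pocket, proteins. Unphosphorylated pocket proteins hold E2F transcription factors and keep the genes of DNA synthesis and division off. The inhibitors act on the kinases: p15 (Cdkn2b) binds CDK4 and CDK6 and keeps D cyclins from them, while p21 (Cdkn1a) and p27 (Cdkn1b) bind whole cyclin and CDK complexes. Stem cells of the bulge rest through telogen and enter the cycle when a new hair starts to grow.

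Levels are given as scaled FPKM, the deposited fragment counts per transcript length and library size, divided by 1 factor per library. Depth ranged from 31.3 to 35.3 M fragments (M for mega). A gene counted as measured at a mean of at least 1 over the libraries (11575 genes), and was called higher or lower where its log2 ratio was 1 or more in size, on the log2(scaled FPKM + 1) scale, which understates differences of low genes. Folds below are plain ratios of scaled FPKM. Their 95% intervals cover counting error only, from approximate fragment numbers, and hold nothing on amplification or on how mice vary.

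All 10 genes passed the filter, on the mean over the libraries. Ccnd1 lies on chromosome 7 (144929931 to 144939925, minus strand, mm10, ENSMUSG00000070348). Ccnd2 (ENSMUSG00000000184) and Cdkn1b (ENSMUSG00000003031) share chromosome 6, at 127125162 to 127152193 (minus strand) and 134920401 to 134925513 (plus strand), with 7.77 Mb between them. Ccnd3 (ENSMUSG00000034165, 47505051 to 47599691, plus strand) and Cdkn1a (ENSMUSG00000023067, 29090979 to 29100722, plus strand) are on chromosome 17, 18.4 Mb apart. Cdk4 is on chromosome 10 (127063534 to 127067920, plus strand, ENSMUSG00000006728) and Cdk6 on chromosome 5 (3341485 to 3531008, plus strand, ENSMUSG00000040274). Cdkn2b is on chromosome 4 (89306289 to 89311032, minus strand, ENSMUSG00000073802), 11.6 kb from Cdkn2a. Rb1 is on chromosome 14 (73183673 to 73325822, minus strand, ENSMUSG00000022105) and Rbl2 on chromosome 8 (91070057 to 91123844, plus strand, ENSMUSG00000031666).

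The promoters of the 3 inhibitors and of Cdk4 are shown as examples of different patterns described below, inhibitors that were highest in S and a kinase that was nearly level. RefSeq promoter windows (GRCm38.p6) matched 7 of the 10 genes, and Ccnd1, Ccnd2 and Rb1 had no entry. The windows of Ccnd3, Cdk6 and Rbl2 are not shown. Each line gives the 250 bases before an annotated start, 5′ to 3′ on the gene's strand, with motif matches in capitals. For Cdkn1a, which has 2 windows, the upstream one is shown (chr17:29090729-29090978, plus strand), and the capitals are a p53 response element with 1 mismatch. Capitals mark 2 CCAAT boxes (CCAAT) and a GC box (GGGCGG) for Cdkn1b (chr6:134920151-134920400, plus strand). For Cdkn2b (chr4:89311033-89311282, minus strand) they mark a CHR element (TTTGAA, here on the other strand). For Cdk4 (chr10:127063285-127063534, plus strand) they mark 4 E-boxes (CACGTG, the MYC and MAX site) and a GC box on the other strand.
Cdkn1a: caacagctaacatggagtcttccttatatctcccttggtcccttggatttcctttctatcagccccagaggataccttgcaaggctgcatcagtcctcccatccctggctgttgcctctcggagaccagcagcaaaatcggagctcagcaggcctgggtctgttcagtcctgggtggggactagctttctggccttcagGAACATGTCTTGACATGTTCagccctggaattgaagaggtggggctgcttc
Cdkn1b: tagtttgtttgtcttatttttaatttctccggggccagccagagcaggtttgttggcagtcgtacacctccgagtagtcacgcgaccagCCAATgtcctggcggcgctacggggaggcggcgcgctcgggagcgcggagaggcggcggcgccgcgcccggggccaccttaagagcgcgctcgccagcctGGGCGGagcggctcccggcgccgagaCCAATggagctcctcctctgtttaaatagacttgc
Cdkn2b: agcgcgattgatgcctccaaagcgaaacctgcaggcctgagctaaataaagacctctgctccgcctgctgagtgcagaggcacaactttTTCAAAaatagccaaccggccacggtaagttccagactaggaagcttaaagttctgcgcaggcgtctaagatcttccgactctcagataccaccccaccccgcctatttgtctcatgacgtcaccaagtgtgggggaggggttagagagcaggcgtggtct
Cdk4: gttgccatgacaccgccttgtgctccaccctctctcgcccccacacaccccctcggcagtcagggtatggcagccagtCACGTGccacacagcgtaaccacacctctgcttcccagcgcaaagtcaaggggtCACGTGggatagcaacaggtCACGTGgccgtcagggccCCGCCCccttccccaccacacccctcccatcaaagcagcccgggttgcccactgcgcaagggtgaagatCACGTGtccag

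Searched on both strands over 32536 windows of that length, the p53 element with at most 1 mismatch was found in 0.0768%. At least 4 E-boxes were found in 0.0215%, and at least 1 in 6.04%. The GC box was in 33.0%, CCAAT in 33.8% and the CHR in 15.8%, so these are common letters. TATAAA was in 12.3% and the FOXO motif GTAAACA in 3.17% of all windows. The E2F motif (TTTCCCGC, TTTGGCGC, TTTCGCGC or TTTGCCGC) was in 1.87% of all windows, and these letters were in no window of the 7 genes. The p53 element of Cdkn1a lay 51 to 32 bases before its upstream annotated start. The window at its downstream start held GC boxes and no match to the p53 element. The E-box of Cdk4 nearest its start lay 11 to 6 bases before it. A match describes the sequence and not a bound site.

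**Figure D1:**
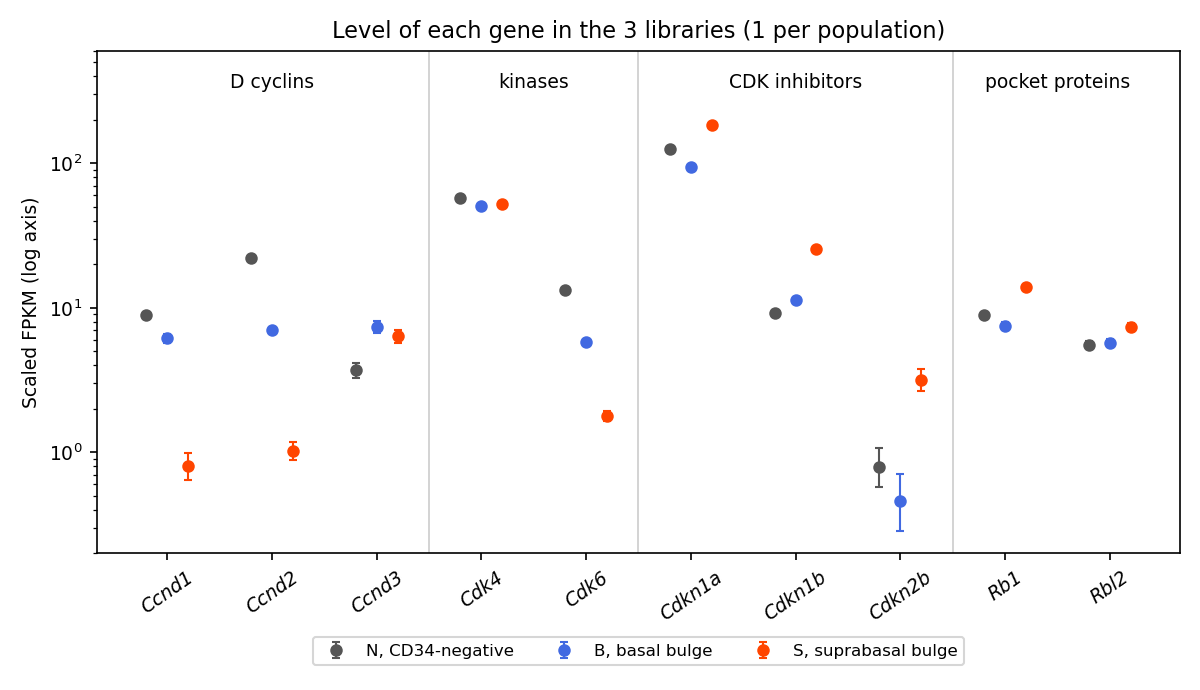
Scaled FPKM (log axis) of the 10 genes in the N, B and S libraries, grouped by role. Each point is 1 pooled library and bars are 95% counting intervals. Ccnd1, Ccnd2 and Cdk6 step down from N to B to S, while Cdkn1b and Cdkn2b are highest in S.

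Among the D cyclins, Ccnd2 differed most between the populations. Its level was 22.0 for N, 7.01 for B and 1.02 for S. The 3 libraries stand well apart, with N above B and B above S. Ccnd2 was 3.14-fold higher in N than in B (95% counting interval 2.96 to 3.33) and 21.5-fold higher in N than in S (18.6 to 25.0). Between the bulge layers the fold was 6.86 (5.89 to 8.03) towards B. In bulk RNA, fewer cells that express a gene and less of its RNA per cell cannot be told apart, here and in what follows.

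Ccnd1, the D cyclin most tied to growth factor and Wnt signals, followed the same order with another spacing. Its level was 8.86 in N, 6.15 in B and 0.806 in S. Here B was close to N, at a fold of 1.44 (1.32 to 1.58), and the gap was between the bulge layers, where B exceeded S by 7.63-fold (6.10 to 9.64). The S level rests on about 87 fragments. Among measured protein-coding genes, Ccnd1 was at the 65.8th percentile of levels in N and the 4.19th in S.

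Ccnd3 went the other way. Its level was 3.68 in N, 7.37 in B and 6.36 in S, so both bulge libraries were above N and close to each other. The fold of B over N was 2.00 (1.73 to 2.31), just short of the call on the log2 scale with its pseudocount (0.84), and that of S over N 1.73 (1.48 to 2.01). B over S was 1.16 (1.01 to 1.33).

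The summed D cyclin level was 34.5 in N, 20.5 in B and 8.19 in S, and its make-up differed too. Ccnd2 held 63.7% of the sum in N, 34.2% in B and 12.5% in S. Ccnd1 held 25.7%, 30.0% and 9.85%, in the same order. Ccnd3 was the smallest share in N (10.7%), about equal to the others in B (35.9%) and the largest in S (77.7%). These shares compare genes per length within 1 library and do not depend on the scaling between libraries.

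**Figure D2:**
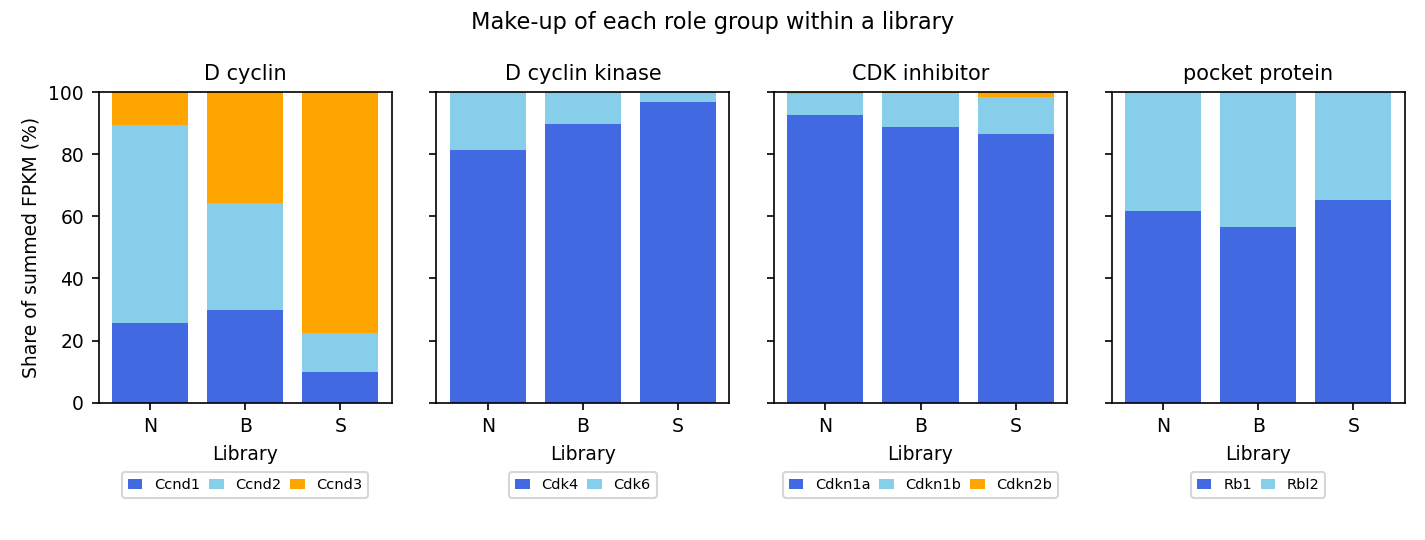
Share of each gene (percent, from 0 to 100) in the summed FPKM of its role group, for the N, B and S libraries. Ccnd3 makes up 10.7% of the D cyclins in N and 77.7% in S, and the Cdk6 share of the kinases goes from 18.8% to 3.30%.

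The kinase genes split as well. Cdk4 was abundant and nearly level, at 57.6 (N), 50.9 (B) and 52.6 (S), near the 95th percentile of protein-coding levels in each library. N was 1.13-fold above B (1.08 to 1.18) and 1.09-fold above S (1.05 to 1.15), and for B and S the interval of the fold, 0.984 to 1.09, includes equal levels. Cdk6, which encodes the other D cyclin kinase, was at 13.3 (N), 5.75 (B) and 1.79 (S), the order of Ccnd1 and Ccnd2. Its fold was 2.31 (2.20 to 2.43) between N and B, 3.21 (2.93 to 3.52) between B and S, and 7.42 (6.82 to 8.09) between N and S. Cdk6 made up 18.8% of the summed kinase level in N, 10.2% in B and 3.30% in S, and the ratio of Cdk4 to Cdk6 was 4.33, 8.85 and 29.3.

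Of the inhibitors, Cdkn1a, whose protein p21 is induced by p53, was the most abundant of the 10 genes in every library. Its level was 126 in N, 93.9 in B and 184 in S, above the 97th percentile of protein-coding genes each time. S was 1.95-fold above B (1.89 to 2.02) and 1.45-fold above N (1.42 to 1.49), short of the call in both (log2 ratios 0.96 and 0.54). Cdkn1b, whose protein p27 is a mark of resting cells, was at 9.25 (N), 11.4 (B) and 25.5 (S). S stood apart while N and B were close. The fold of S was 2.76 over N (2.60 to 2.93) and 2.24 over B (2.11 to 2.38), and that of B over N was 1.23 (1.15 to 1.32).

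Cdkn2b, whose protein p15 responds to TGF-beta, was the scarcest of the 10 genes in N and B and reached 3.17 in S, against 0.796 in N and 0.463 in B. These levels rest on about 127, 43 and 21 fragments. S exceeded N by 3.98-fold (2.80 to 5.77) and B by 6.85-fold (4.29 to 11.4), while for B over N the interval, 0.328 to 1.00, reaches equal levels. Its neighbour Cdkn2a, which encodes the related inhibitor p16, was listed at 0 in all 3 libraries.

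The inhibitor sum was 136 in N, 106 in B and 212 in S, of which Cdkn1a held 92.6%, 88.8% and 86.5%. Cdkn1b held 6.79%, 10.8% and 12.0%, and Cdkn2b at most 1.49%. Set against the D cyclin sum of the same library, the sum of these 3 inhibitors was 3.94 times as high in N, 5.15 in B and 25.9 in S. These are ratios of RNA, other inhibitor genes are left out of them, and protein was not measured. Cdkn1b alone was at 0.268, 0.555 and 3.12 times the D cyclin sum, so p27 transcripts were fewer than D cyclin transcripts per length in N and B and more numerous in S.

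Neither pocket protein gene passed the call. Rb1, the retinoblastoma gene, was at 8.87 (N), 7.48 (B) and 14.0 (S). S was 1.87-fold above B (1.73 to 2.01) and 1.57-fold above N (1.47 to 1.68), with log2 ratios of 0.82 and 0.60. Rbl2, whose protein p130 represses cycle genes in resting cells, was at 5.52 (N), 5.72 (B) and 7.40 (S). Its highest fold, S over N, was 1.34 (1.23 to 1.46), and N and B did not differ beyond counting error. Their sum was 14.4 in N, 13.2 in B and 21.4 in S, with Rb1 at 56.7% to 65.3% of it.

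The library preparation does not mark strand, so fragments of overlapping genes on opposite strands cannot be told apart. Such partners lie at Ccnd1 (LTO1), Ccnd3 (Bysl), Cdk4 (Tspan31), Rb1 (Rcbtb2 and Lpar6) and Rbl2 (Aktip), and antisense genes at Ccnd2 and Cdk6. The antisense genes at Ccnd2 and Cdk6 were at 0.343 or below in every library. Tspan31 was at 15.0 to 17.9 and Aktip at 15.9 in B and 23.6 in S, the library where Rbl2 was also highest. LTO1 was at 4.51 (N), 2.87 (B) and 3.98 (S), and in S this was above the Ccnd1 level of 0.806. The part of overlapping genes in the levels of Ccnd1, Cdk4, Rbl2 and the other genes named here was not tested. Cdkn1a, Cdkn1b and Cdkn2b overlap no other deposited gene at the deposited coordinates. For Cdkn1a and Cdkn2b these coordinates differ from those in GENCODE M21, where overlaps were not searched.

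In B against N, the question was how resting stem cells of the outer bulge differ from the rest of the epidermis. None of the 10 genes was higher, where 7.27% of all measured genes were, and 2 were lower, where 7.10% were. The lower ones were Ccnd2 (log2 ratio -1.52) and Cdk6 (-1.08). The median log2 ratio over the 10 was -0.26, against -0.04 over all measured genes. Cdk6 fell short of the call under 3 of 4 other scalings, at -0.93 to -0.97.

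Against N, the S library had 2 of the 10 genes higher, Cdkn1b (1.37) and Cdkn2b (1.22), where 9.56% of all measured genes were. It had 3 lower, Ccnd2 (-3.51), Ccnd1 (-2.45) and Cdk6 (-2.36), where 10.9% were. Of all measured genes, 1% had a log2 ratio below -3.27 and 3% below -2.29, so Ccnd2 was within the lowest 1% and Ccnd1 and Cdk6 within the lowest 3%. The median was 0.45 over the 10 genes and 0.02 over all measured genes. The other 5 lay between -0.13 (Cdk4) and 0.65 (Ccnd3).

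S against B compares the inner with the outer bulge layer. The same 5 genes passed the call in the same directions, and the comparisons share the S library. Cdkn2b (1.51) and Cdkn1b (1.10) were higher, where 3.89% of all measured genes were. Ccnd2 (-1.99), Ccnd1 (-1.98) and Cdk6 (-1.27) were lower, where 5.93% were. Cdkn1a (0.96) and Rb1 (0.82) came next on the higher side without reaching 1. Cdkn1b missed the call at 0.83 when libraries were scaled to their upper quartile. With a pseudocount of 5, none of the 5 passed, since most of these levels are near or below 5.

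**Figure D3:**
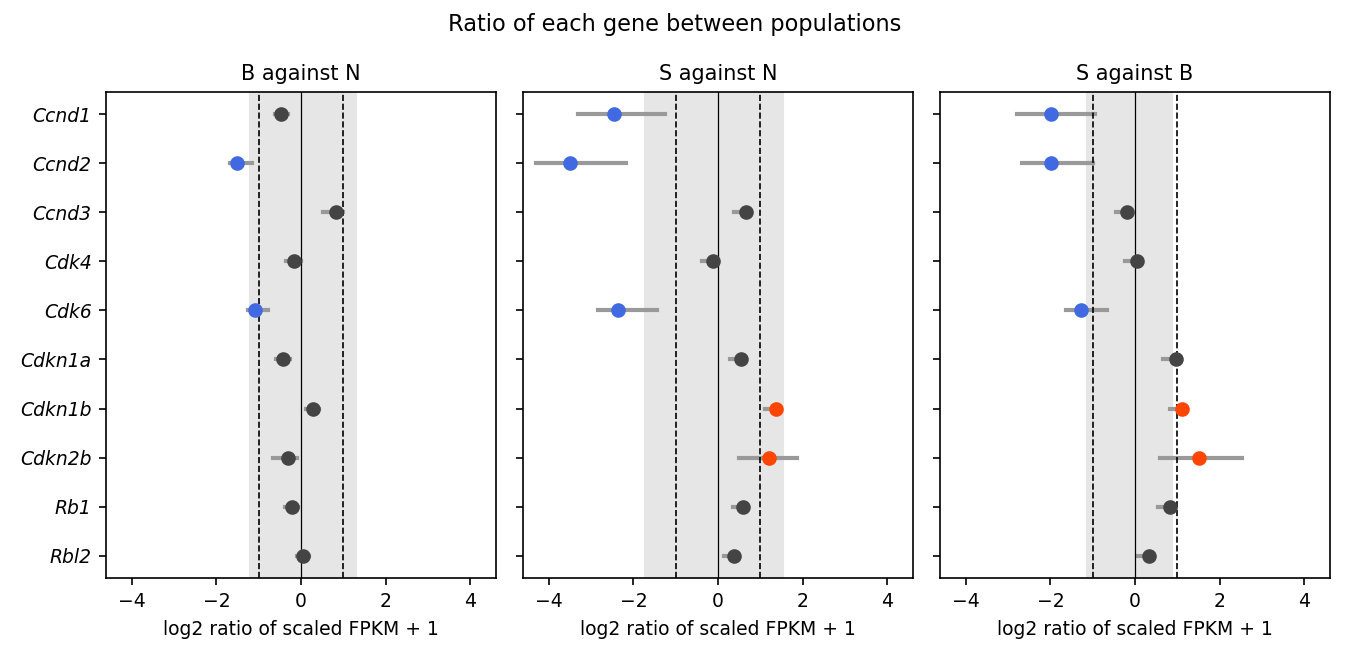
Log2 ratio of scaled FPKM + 1 for the 10 genes in the 3 comparisons. Points are the ratios, orange-red where higher and blue where lower by the call (dashed lines), grey lines the range over all scalings and pseudocounts tried, and the grey band the 5th to 95th percentile of all measured genes. Ccnd1, Ccnd2 and Cdk6 lie left of the band in S against N and S against B.

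By library, N was the highest for 4 of the 10 genes (Ccnd1, Ccnd2, Cdk4 and Cdk6), B for 1 (Ccnd3) and S for 5, which are the inhibitors and pocket proteins. Each of the 3 inhibitors and both pocket proteins among the 10 had the highest level in the library with the lowest D cyclin sum. Other genes of these families, picked after their values were seen, went both ways. Rbl1, a further pocket protein gene, was highest in N (2.59, 1.66 and 1.63 in N, B and S). Cdkn2c (2.14, 1.24 and 1.13), Cdkn2d and Cdkn3 were also highest in N, and Cdkn1c was highest in S. For Cdk4 the order of B and S turns with the scaling (log2 ratio 0.05 as scaled here, and -0.24 to just under 0 with the 4 other scalings), as does that of N and B for Rbl2 (-0.10 to 0.19).

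Counts for the pathway lists that follow stand beside the shares of all measured genes given above. The other inhibitors followed no single pattern. Of 6 further genes (5 CDK inhibitors and the pocket protein gene Rbl1), 5 were measured. In B against N 0 were higher and 2 lower, and in S against N 1 was higher and 1 lower, with medians of -0.49 and -0.56. Cdkn2d, which encodes the INK4 protein p19, was at 12.0 (N), 5.11 (B) and 7.61 (S). Picked after their values were seen, the lower genes included Cdkn3, a phosphatase gene of dividing cells (2.85 in N, 0.0495 in B and 0.275 in S), and the higher one was Cdkn1c, which encodes p57 (0.369 in N, 1.62 in B and 2.04 in S).

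Of 18 genes listed as other cyclins and cell cycle kinases, the Cdc25 phosphatase genes among them, 14 were measured. Against N, 6 were lower in B and 5 in S, with 0 higher. Their median log2 ratio was -0.53 in B against N and -0.69 in S against N, and 2 were lower in S than in B. Wee1, whose kinase holds CDK1 inactive, was at 20.6 (N), 7.41 (B) and 6.86 (S). Ccnh and Mnat1, whose proteins form the CDK-activating kinase with CDK7, were at 9.85 and 5.87 in N, 6.37 and 9.35 in B, and 5.30 and 8.11 in S. Ccng2, an unconventional cyclin gene, was at 7.30, 5.35 and 4.30 in N, B and S. Cdk1, the kinase of mitosis, picked after its values were seen, was at 9.05, 2.17 and 0.380.

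In the E2F layer below the pocket proteins, 6 of 10 E2F and DP factor genes were measured, none past the call in any comparison. Their medians were -0.08 in B against N and -0.20 in S against N. Below the filter, and picked after their values were seen, E2f2, E2f3, E2f7 and E2f8 were each highest in N and lowest in S. They were at 0.444, 0.695, 0.494 and 0.782 in N, and at 0.0652, 0.117, 0.0248 and 0.0497 in S. Tfdp1 and Tfdp2, the partners of E2F proteins, were at 8.90 and 6.81 in N, 6.93 and 5.72 in B, and 7.18 and 5.77 in S. The DREAM and MuvB complex, through which p130 represses cycle genes, had 6 of 8 genes measured and none of these past the call. The medians were -0.25 and 0.02. Its genes Lin54 (8.62, 4.98 and 6.06 in N, B and S), Lin37 (5.28, 5.33 and 7.32) and Rbbp4 (16.9, 12.9 and 12.6) stayed within 2-fold. The kinase gene Dyrk1a, whose product promotes DREAM assembly, was at 12.0, 10.4 and 13.4.

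Among E2F targets of DNA synthesis, 12 of 16 genes read here were measured, with 2 lower in B and 5 in S, each against N, and 0 higher. The medians were -0.33 and -0.45. The 4 named by abundance and ratio were close to level. Pcna, the sliding clamp of DNA polymerase, was at 62.3 (N), 45.1 (B) and 50.9 (S). Tyms, which makes thymidylate, was at 16.4, 12.2 and 10.4, the helicase gene Mcm6 at 5.68, 4.58 and 5.42, and Rrm1, a ribonucleotide reductase subunit, at 9.45, 12.2 and 7.98. Of the rest, picked after their values were seen, Uhrf1 was at 4.85, 0.610 and 0.288, and Rrm2, the other reductase subunit and the 1 gene lower in S than in B, at 3.54, 5.90 and 1.01. Cdt1 and Gins2 were not analysed here.

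**Figure D4:**
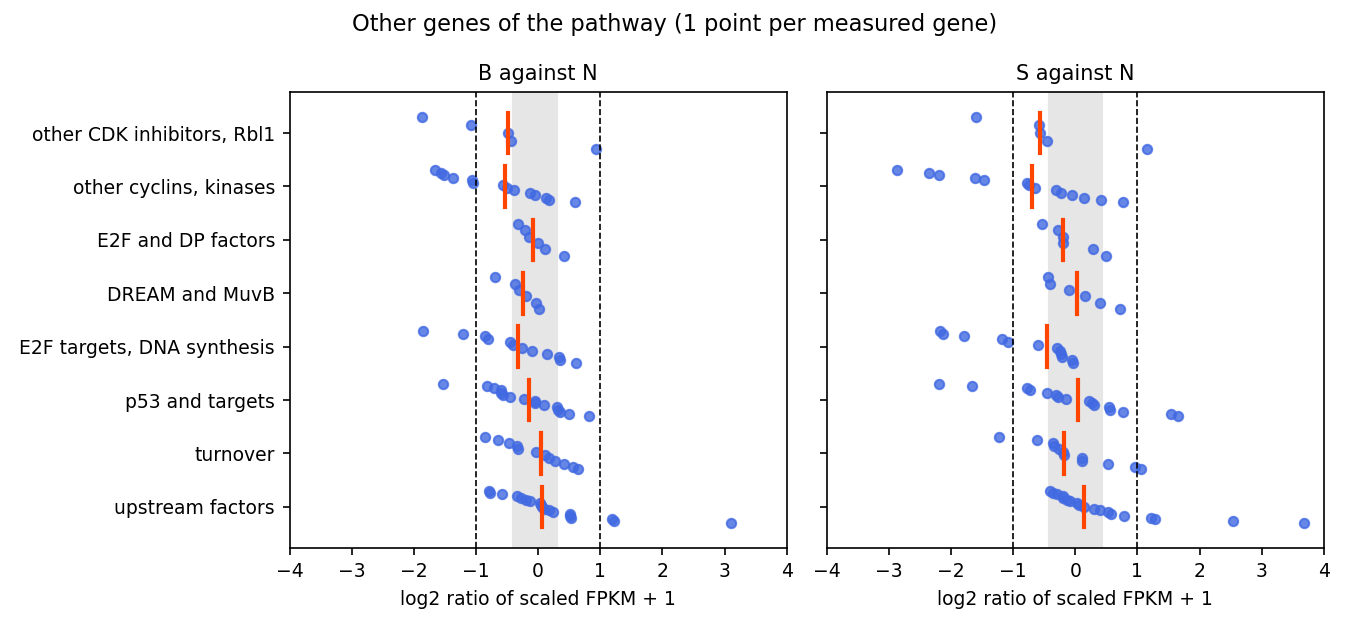
Log2 ratio of scaled FPKM + 1 for every measured gene of 8 pathway lists, in B against N and S against N. Orange-red bars are list medians, dashed lines the call at 2-fold, and the grey band the middle 50% of all measured genes. No measured E2F, DP, DREAM or MuvB gene passes the dashed lines. In the list of other cyclins and kinases, which also holds Cdc25 phosphatase genes, 6 and 5 genes lie past them on the lower side.

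Of p53 and its targets, 16 of 18 genes were measured. In B against N 0 were higher and 1 lower, in S against N 2 were higher and 2 lower, and in S against B 1 was higher and 1 lower. The 2 higher in S than in N were Sesn1, a stress-response gene, at 25.8 (N), 46.2 (B) and 83.4 (S), and Trp53inp1, at 31.7, 40.5 and 93.7. Plk2, a kinase gene of the same list, went the other way, at 12.8, 3.75 and 2.01. Perp, a desmosome component and p53 target, was at 1227, 830 and 1472. The list's median was -0.14 in B against N and 0.04 in S against N, beside -0.42 and 0.54 for Cdkn1a.

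The genes for turnover of D cyclins, p27 and p21 had 12 of 13 members measured, of which 0 were past the call in B against N and 1 in each direction in S against N, with medians of 0.04 and -0.18. Cul1, the scaffold of the ubiquitin ligase that degrades p27, was at 18.5 (N), 22.7 (B) and 39.5 (S). Fbxw7, which directs cyclin E to degradation, was at 9.48, 4.78 and 3.47. Cks1b, the cofactor of p27 recognition, was at 17.1, 18.6 and 10.9, and the adaptor gene Skp1a at 98.8, 154 and 143. Fbxo31 was not analysed here.

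Of 20 transcription factor genes known upstream of D cyclins and CDK inhibitors, 19 were measured. In B against N 3 were higher and in S against N 4, with 0 lower in either and medians of 0.06 and 0.14. Against B, S had 2 higher, Nfatc1 and Mxi1. Tbx1, a T-box factor gene, was at 0.0152 (N), 7.71 (B) and 12.0 (S). Nfatc1, a calcium-regulated factor known to repress Cdk4 in bulge stem cells, was at 3.95, 10.5 and 27.7. Cdk4 was nearly level, and the part of Nfatc1 in its level was not tested. Mxi1, an antagonist of MYC, was at 3.79, 4.64 and 10.6, and Bmi1, a Polycomb gene that represses the Cdkn2a locus, at 3.79, 5.84 and 10.1. The third factor gene higher in B, picked after its values were seen, was Runx1, at 3.81, 9.96 and 4.91.

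Genes of dividing cells had the order of Ccnd1, Ccnd2 and Cdk6 over the libraries. Against N, all 6 measured markers of 8 listed were lower in B and in S, where 7.10% and 10.9% of all measured genes were. The 8 summed to 61.7 in N, 16.1 in B and 2.83 in S. Ube2c, the most abundant, was at 18.1, 4.98 and 0.708. The part of dividing cells in the levels of Ccnd1, Ccnd2 and Cdk6 was not tested.

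The gates were checked against markers. Cd34 was at 0.201 (N), 144 (B) and 215 (S), and Itga6 at 115, 49.3 and 33.1, the order of the sort for B and S. Of 10 basal bulge markers, 7 were higher in B than in N and 8 higher in S. The 2 lower in both were Itga6 and Krt14, the latter picked after its values were seen. In S against B, 0 were higher and 3 lower. The 10 summed to 1755, 3220 and 4726 in N, B and S, with Krt15 the most abundant. Of 6 inner bulge markers, 3 were higher and 1 lower in B against N, and 4 higher and 2 lower in S against N. In S against B, 3 were higher and 1 lower. These counts stand beside the shares of all measured genes given above. The inner bulge sums were 48.3, 131 and 422, with Fgf18 at 0.148, 12.2 and 282. Picked after their values were seen, Krt17 was at 39.95, 41.3 and 13.6, and Timp3 at 7.53, 2.86 and 2.24. Interfollicular basal markers summed to 2649, 1844 and 1262 (Krt5 the most abundant) and differentiating keratinocyte markers to 3685, 1680 and 891 (Krtdap). Upper follicle and sebaceous markers summed to 527, 164 and 144 (Defb6), so N had the highest sum in each. Not every marker followed its sum, and Krt5 was highest in S (818, 810 and 959). Picked after their values were seen, Col17a1 (109, 177 and 161), Sbsn (84.9, 122 and 460), Mgst1 (14.3, 24.7 and 36.6), Lor and Flg were lowest in N.

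Other cell types had few measured markers. Of 7 Langerhans and myeloid markers 4 were measured (sums 46.9, 32.1 and 72.0, mostly Epcam, which keratinocytes also express, at 24.6, 21.7 and 55.9), and Cd207 was at 0.343 or below. In S against N 2 were higher and 1 lower, where 9.56% and 10.9% of all measured genes were. Picked after their values were seen, Cd68 was at 1.69, 2.11 and 6.02, and H2-Aa went the other way, at 13.5, 4.81 and 4.51. T and NK cell markers summed to 19.8, 6.28 and 1.92, nearly all Thy1 (18.3, 4.99 and 0.673). Melanocyte markers summed to 2.41, 17.5 and 35.4 through Mitf (2.08, 16.4 and 34.4), with 6 of 7 below 1 in every library. Fibroblast markers summed to 0.817, 16.0 and 28.5 through Col6a1 (0.242, 13.9 and 25.9), with 5 of 7 below 1 throughout, and 0 of 5 endothelial markers were measured, the highest being Ramp2 (2.35 in B). Defining markers listed at 0 in at least 1 library were Cd3d, Cd8a, Dct, Mlana, Sox10, Col3a1, Cdh5 and Cldn5. The part of these cells in the inhibitor levels of S was not tested.

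For the 3 members with the widest range of log2 levels among those that reach 10 scaled FPKM in some library, which leaves out Ccnd1, Ccnd3, Cdkn2b and Rbl2, the most similar genes were looked for among 3055 protein-coding genes of mean at least 10, by Euclidean distance in the pair of log2 ratios over N, over 3 libraries. Nearest to Ccnd2 were Rasgrp1 (distance 0.03), Ndufa4l2 (0.06) and Ptges (0.14), with Rasgrp1 at 26.0 (N), 8.61 (B) and 1.40 (S). Nearest to Cdk6 were Slco3a1 (0.10), Glul (0.12) and Tnfaip8 (0.12). Glul, which encodes glutamine synthetase, was at 40.8, 17.3 and 6.91. Cdkn1b had Selenok (0.04), Galt (0.04) and Hltf (0.06), of which Selenok was at 31.5, 38.9 and 81.2.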

How the data were processed

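The authors deposited 1 file of FPKM per Ensembl gene for each population. The file headers name FPKM for N and S; the header of B names only the population, and its unit was taken from the values. Per the labels' protocols, pooled RNA was preamplified from poly(T) and random primers, made into Nextera XT libraries and read with paired ends of 75 bp. TopHat2 2.0.12, Cufflinks 2.1.1, DESeq2 and mm10 appear among the submitters' processing notes, without their roles. The annotation is not given in the sources used here.

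Symbols were found for 49195 of 49452 rows, from a table of gene names and GENCODE M21, and rows of 1 symbol were summed. Scaling used the median of ratios to the geometric mean, over 18559 genes with no 0 in any library (factors 1.10 for N, 0.981 for B and 0.923 for S), and the pseudocount was 1. Depth came from the spacing of low values in 1-exon genes of at least 3000 bp, of which 95.7% to 97.9% lay within 0.1 of a whole fragment. At 2 kb and 1 FPKM the counting SD is 11.9% to 12.6%. Fragments per gene are approximate: FPKM times depth times the longest protein-coding transcript in GENCODE M21, so intervals would be wider for a shorter one. Level intervals are exact Poisson and fold intervals exact binomial (Clopper-Pearson), at 95%. The scaling and ratio steps behind the size call were run on simulated data with seeded changes larger than 2-fold in genes well above the filter. Such changes pass the call by their construction. The run checks the code only, and holds nothing on genes of low level or on how mice vary. Python 3.11.15, pandas 2.3.3, numpy 2.4.6, scipy 1.17.1 and matplotlib 3.10.9 were used.

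The 10 genes, the 8 pathway lists and 11 marker lists were chosen with earlier results of these data known. Named genes are the 10, up to 4 genes per pathway list with the largest log2 ratio among those of mean at least 5, the most abundant gene of each marker list, and the 3 nearest genes of 3 members; others are said to be picked after their values were seen. Alternatives were 4 other scalings, pseudocounts of 0.1 and 5, no filter or a mean of at least 5, and the highest row of a symbol.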

Additional observations from a re-analysis of the deposited data

How the results depend on the processing

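No value changed direction where it was past the call. The number of genes past 2-fold in B against N, 2, became 1 with libraries set to the same sum over protein-coding genes, to their upper quartile, or to median ratios over genes of mean at least 10, where Cdk6 was at -0.95, -0.93 and -0.97 (log2), and with a pseudocount of 5, where it was at -0.77. In S against B the 5 genes became 0 with a pseudocount of 5, which by its construction shrinks ratios of low levels: Ccnd1 -0.94, Ccnd2 -0.996, Cdk6 -0.66, Cdkn1b 0.90 and Cdkn2b 0.58. They became 4 with the upper quartile, without Cdkn1b (0.83), or with a filter at a mean of 5, which leaves out Cdkn2b. In S against N the 5 became 4 with a pseudocount of 5 (Cdkn2b at 0.50) or that filter. Of the values recomputed gene by gene under each scaling and pseudocount, 169 kept their side of the call and 11 lost it. Over all measured genes, the share of higher among called genes in B against N was 50.6%, against 39.5% as deposited, 59.5% with equal sums and 61.0% with the upper quartile; in S against N it was 46.8%, against 33.8% as deposited, and in S against B 39.6%, against 24.6% with the upper quartile. The Ccnd3 shares could not change with the highest row of a symbol, because each D cyclin has 1 row. No paired analysis was possible because each group has 1 library, and for the same reason no library could be left out. Cdkn2b in N and B, at about 43 and 21 fragments, is where depth limits most.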
